A study of Mus musculus with 6 samples.

Results

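The 3 arrays described here carry RNA of B lineage cells from the small intestine of mice, taken from its lamina propria, a layer of connective tissue beneath the epithelium. They were chosen by their labels, which name lamina propria pools 1 to 3, and they are 3 of the 6 arrays of the study; the other arrays carry bone marrow cells and are not compared here. All cells came from RAG2-GFP/129Sve mice, a strain in which green fluorescent protein (GFP) reports the recombination gene Rag2, aged post-natal day 17 to 25 and kept in a specific pathogen-free facility. Each experiment took 8 to 12 mice, GFP-positive cells were sorted from the prepared tissue, RNA was extracted with Trizol, and between 4.5 and 47 ng of it was amplified and labelled with biotin for a whole-transcript array. A pool is therefore a mixture of animals. The spread between pools holds differences between experiments and differences between mice averaged within each pool. It does not measure the spread between single mice. The labels do not give the reporter construct, nor how long its fluorescence outlasts Rag2 transcription.

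B cells are made from progenitors that switch on the transcription factors E2A, EBF1 and PAX5 and then join the gene segments of the antibody heavy chain with the RAG1 and RAG2 recombinase. A successful heavy chain is tested in the pre-B cell receptor, where the proteins VPREB1 and IGLL1 stand in for the light chain, after which the light chain genes are joined and the cell becomes an immature and later a mature B cell. In the mouse these steps are best known from the fetal liver and the bone marrow.

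Values are the authors' log2 RMA values, 1 per gene, for 19938 genes. Unless stated otherwise, 3 values in a row belong to pools 1, 2 and 3 in that order, and ranks count from 1 at the highest value of an array. A probe set's value also depends on how well its probes bind, so the order of different genes within an array is approximate, while the values of 1 gene in different pools can be set side by side. The sort is a bulk measurement, in which fewer cells of a type and less RNA per cell cannot be told apart.

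The 3 pools were not alike, and pool 3 stood apart from the other pools in the spread of its values. The median gene stood at 5.62, 5.58 and 5.42, and the distance between the quartiles was 1.51, 1.48 and 2.05. Pool 3 had 734 genes at 9 or more, against 497 in pool 1 and 465 in pool 2. Across genes, which are not independent replicates, Pearson's r was 0.856 between pools 1 and 2, 0.832 between pools 1 and 3 and 0.812 between pools 2 and 3. The median absolute difference of a gene was 0.279 between pools 1 and 2, but 0.549 and 0.570 between pool 3 and pools 1 and 2. No group of samples is compared in what follows and no test was made, so every difference between pools is given as a value. The labels do not say how much RNA went into each pool, and its part in these differences was not tested.

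The 5 genes taken here as markers of a B cell precursor (Vpreb1, Igll1, Dntt, Rag1 and Ebf1) stood at 9 or more in each pool. Of all genes, 262 did so (1.31%). The 5 were chosen with earlier results of these data known, so their level is a description and not a test. Vpreb1, the surrogate light chain gene, stood at 11.92, 11.71 and 11.67, or 11.77 ± 0.14 (SD, n = 3). Dntt, the polymerase that adds untemplated bases at the joints of the heavy chain gene, had 10.68, 10.86 and 10.57, or 10.70 ± 0.15 (SD, n = 3). Both were level over the pools, with ranges of 0.26 and 0.29. Igll1, the partner of Vpreb1, had 10.61, 11.21 and 10.26, or 10.69 ± 0.48 (SD, n = 3), and was highest in pool 2. Ebf1, the factor that opens B lineage genes in progenitors, had 10.36, 10.57 and 10.61, or 10.52 ± 0.13 (SD, n = 3). Rag1, the DNA-cutting subunit of the recombinase, had 9.75, 9.68 and 10.47, or 9.97 ± 0.44 (SD, n = 3), with pool 3 above the other pools. The last place of any of the 5 genes was rank 285, for Rag1 in pool 1. Rag2, the gene that the label of these samples names and whose reporter defined the sort, was not among them and stood near the array median in pools 1 and 2, at 5.67, 5.75 and 6.06, ranks 9622, 8729 and 6638. The label thus has these 5 markers of precursors high in all 3 pools, but not a high level of Rag2 itself.

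**Figure D1:**
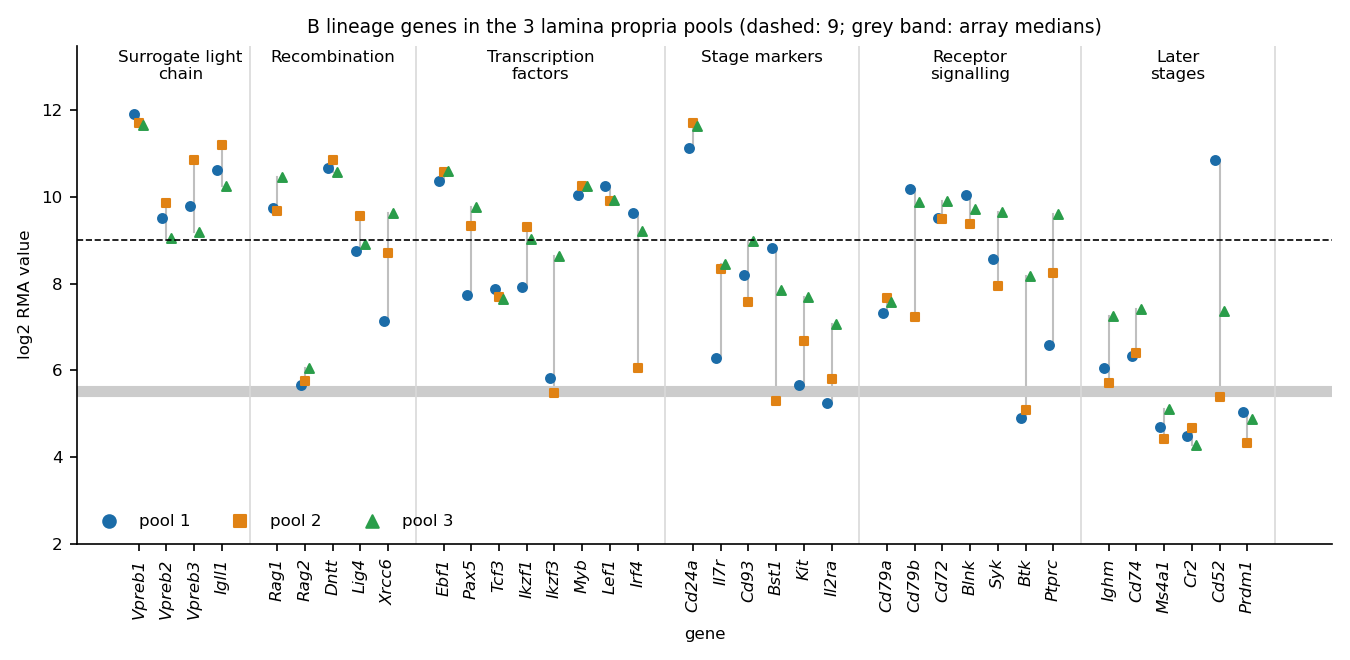
Log2 RMA values (vertical axis) of B lineage genes in the 3 lamina propria pools (circles, pool 1; squares, pool 2; triangles, pool 3), grouped by role, with a grey line joining the lowest and highest pool, the level of 9 dashed and a grey band over the array medians. Vpreb1, Dntt, Ebf1 and Myb lie close together in all pools, while Cd52 spans 5.39 to 10.86 and Irf4 spans 6.05 to 9.64.

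The genes of the surrogate light chain and their relatives all stood at 9 or more in every pool. Vpreb1 ranked 15, 21 and 27 among 19938 genes and was the only B lineage gene among the 20 with the best mean rank. Vpreb2, a near-identical copy of Vpreb1, stood at 9.51, 9.87 and 9.06, and the probe set of either copy may also bind RNA of the other, so the share of each is uncertain. Vpreb3, which binds immunoglobulin chains during their assembly, had 9.79, 10.85 and 9.20, with pool 2 highest and pool 3 lowest. Vpreb2 and Igll1 had the same order of pools as Vpreb3, whereas Vpreb1 was highest in pool 1. Of the 18 measured genes in the list of pro-B and pre-B stages, 5 stood at 9 or more in all pools: these 4 and Cd24a, the heat-stable antigen of immature B cells, at 11.14, 11.70 and 11.63.

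The start regions of Vpreb1, Vpreb2 and Igll1 are shown because they encode the surrogate light chain, the Vpreb pair being near-identical copies, and because each holds the same short motif. Each is the 250 bases before the RefSeq start site on the strand of the gene, 5′ to 3′, from build GRCm38.p6, with the E-box CAGGTG (on either strand) in capitals. This is the E-box sequence bound by E2A proteins in general, and a match is a description, not a binding site.
Vpreb1, chr16:16869256-16869505, minus strand: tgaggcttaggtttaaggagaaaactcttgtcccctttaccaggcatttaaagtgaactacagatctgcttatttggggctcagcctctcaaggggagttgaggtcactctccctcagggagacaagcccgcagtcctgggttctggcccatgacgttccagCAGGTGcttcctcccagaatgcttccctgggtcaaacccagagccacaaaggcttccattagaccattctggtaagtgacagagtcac
Vpreb2, chr16:17980315-17980564, plus strand: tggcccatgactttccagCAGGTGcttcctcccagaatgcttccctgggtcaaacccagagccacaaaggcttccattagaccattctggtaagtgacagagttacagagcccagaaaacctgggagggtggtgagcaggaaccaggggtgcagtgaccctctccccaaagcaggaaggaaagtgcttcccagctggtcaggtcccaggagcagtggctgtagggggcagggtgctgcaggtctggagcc
Igll1, chr16:16863986-16864235, minus strand: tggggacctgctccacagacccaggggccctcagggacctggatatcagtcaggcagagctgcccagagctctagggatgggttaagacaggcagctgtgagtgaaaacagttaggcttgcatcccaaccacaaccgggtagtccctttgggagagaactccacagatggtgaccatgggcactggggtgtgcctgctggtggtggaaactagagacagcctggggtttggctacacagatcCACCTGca
The E-box began 88 bases before the RefSeq start in Vpreb1, 232 bases before it in Vpreb2 and 8 bases before it, in the other orientation, in Igll1. Set side by side at the E-box, the RefSeq windows of Vpreb1 and Vpreb2 (250 bases before to 50 after the start) shared 156 positions, of which 153 held the same base. These windows were offset by 144 bases, so the E-box lay at the same place in the shared sequence. Its unlike distances in Vpreb1 and Vpreb2 reflect where RefSeq sets each start. In Vpreb2 the sequence from the RefSeq start begins with atg, and whether transcription starts there was not settled here. Of the 16 B lineage genes at 9 or more in all pools, 15 had a window of this length in the table. Of these, 7 held the E-box, Rag1, Blnk, Lef1 and Hsp90b1 among them, against 22.6% of all genes with a window. The 7 count Vpreb1 and Vpreb2 separately, although their windows are near-identical where they overlap. The EBF1 core CCCNNGGG, searched on both strands, was in 2 of the 15 (Igll1 and Itga4), against 15.4% of all genes.

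The recombination machinery was unevenly represented. Of 14 measured genes, 3 stood at 9 or more in all pools, 8 stood above the array median in all pools (36.7% of all genes did), and 0 had a range of 3 or more (2.96% of all genes did). Hmgb2, a chromatin protein that bends DNA for the recombinase, had 11.25, 11.19 and 11.17. Lig4, the ligase that closes the joints, stood at 8.75, 9.56 and 8.91, and Xrcc6 (KU70, which caps DNA ends) at 7.15, 8.70 and 9.62, lowest in pool 1 and highest in pool 3. Hmgb1, at 8.74, 8.17 and 7.94, had the opposite order. Rag2, named because its reporter defined the sort, was far below its partner Rag1 in rank in every pool. Xrcc5, the KU80 partner of Xrcc6, stood below the median in pools 1 and 2 and above it in pool 3, at 4.595, 5.27 and 6.03. The median member of the list stood at the percentiles 67.5, 65.4 and 73.0 of the 3 arrays, where 100 is the highest value.

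The B lineage transcription factors stood higher as a list than the recombination genes. Their median member was at the percentiles 94.3, 93.3 and 93.2, 18 of 20 stood above the median of every array, and 3 stood at 9 or more in all pools. Myb, needed for the survival of pro-B cells, had 10.05, 10.27 and 10.26. Lef1, a nuclear partner of WNT signalling expressed in pro-B cells, had 10.25, 9.91 and 9.94. Both were steady, with ranges of 0.22 and 0.34. Pax5, which holds cells in the B lineage, had 7.74, 9.34 and 9.77, and Ikzf1 (IKAROS) had 7.92, 9.31 and 9.04. Both stood lower in pool 1 than in the other pools. Erg, an ETS family factor of early progenitors, stood at 9.54, 8.21 and 8.96, highest in pool 1. Tcf3, which encodes E2A, stood at 7.88, 7.70 and 7.65, and Foxo1, a factor upstream of the Rag genes, at 7.94, 7.96 and 8.27; both were named after their values were seen, because of their known roles.

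Of the 17 listed transcription factors with a pool at 7 or more, 2 had a range of 3 or more. These are 11.8%, beside 12.7% of all genes with a pool at 7 or more. Irf4, which acts at the step to light chain joining and again in plasma cells, had 9.64, 6.05 and 9.22. It was high in pools 1 and 3 and close to the median in pool 2. Ikzf3 (AIOLOS), an IKAROS family member that follows the pre-B receptor, had 5.83, 5.47 and 8.65. Here pool 3 alone was high, and pools 1 and 2 lay close to their array medians.

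Receptors and surface proteins of the early stages followed. The median range of the pro-B and pre-B list was 1.54, beside 0.75 for the transcription factors. Of its 18 genes, 15 stood above the array median in all pools (83.3%, beside 36.7% of all genes). A range of 3 or more was found for 1, against 2 of the 20 transcription factors. This is 6.25% of the 16 that reached 7 in a pool, beside 12.7% of all such genes. The gene with that range was Bst1, a surface marker of pro-B cells also called BP-3, at 8.84, 5.29 and 7.86. In pool 2 Bst1 was below the array median. Kit, the stem cell factor receptor of early progenitors, had 5.65, 6.67 and 7.69, the order being pool 1, pool 2, pool 3. Cecr2, a bromodomain protein, had the same order at 8.12, 9.63 and 10.68. Il7r, the receptor for interleukin 7 and the main growth signal of these cells, had 6.29, 8.35 and 8.45, so that pool 1 was low and pools 2 and 3 were close. Il2ra (CD25), a marker of pre-B cells, had 5.25, 5.80 and 7.07. Cd93, a marker of immature B cells, had 8.21, 7.57 and 8.99. These last 3 genes were named after their values were seen.

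Genes of B cell receptor signalling were present in part. Of 18 measured, 2 stood at 9 or more in all pools and 16 above the array median in all pools (88.9%, beside 36.7% of all genes). A range of 3 or more was found for 2. These are 12.5% of the 16 that reached 7 in a pool, beside 12.7% of all such genes. Blnk, the adaptor that links the receptor to calcium signalling, had 10.04, 9.38 and 9.72. Cd72, a co-receptor that restrains B cell receptor signals, had 9.52, 9.498 and 9.92. These adaptor and co-receptor genes were level over the pools. Cd79b, a signalling chain of the receptor, had 10.18, 7.22 and 9.89, much lower in pool 2 than in pools 1 and 3. Its partner Cd79a, named after its values were seen, had 7.32, 7.67 and 7.58 and did not share that pattern. Syk, the first kinase after the receptor, had 8.56, 7.96 and 9.66, and Pik3ap1 (BCAP), an adaptor for the PI3 kinase, had 7.28, 7.62 and 9.77. Both were highest in pool 3, as was Ptpn6 (SHP-1), a phosphatase, at 7.41, 7.68 and 8.63. Ptprc, which encodes CD45, had 6.58, 8.26 and 9.60, and Btk, a kinase whose loss stops B cell development, had 4.91, 5.09 and 8.17. In pools 1 and 2 Btk was below the array median, at ranks 14454 and 13379, and in pool 3 it ranked 1566.

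Lists of later stages differed in level. The median gene of the mature B cell list stood at the percentiles 40.2, 51.3 and 62.3, below that of the recombination list in each pool, whereas that of the plasma cell list stood at 76.5, 68.4 and 72.6, above the recombination list in pools 1 and 2 and just below it in pool 3. Of the immunoglobulin constant regions, 3 of 11 listed genes had a probe set of their own name. Igha had 7.53, 6.001 and 8.52, Ighm 6.05, 5.71 and 7.25 and Ighg3 4.01, 3.54 and 4.31. Ighm and Igha are each covered by several probe sets, and those of Ighm ranged in pool 3 from 2.93 to 7.25, so these levels depend on the probe set that stands for the gene. The kappa constant region Igkc was not analysed here. Of 16 genes of mature B cells, 0 stood at 9 or more in all pools. In all pools 6 stood above the array median and 6 below it, beside 7410 of all 19938 genes below it. The 6 of 16 above it are 37.5%, near the 36.7% of all genes, and the share of all genes at 9 or more (1.31%) leaves less than 1 such gene in a list of this size. Cd52, a small surface glycoprotein of lymphocytes, had 10.86, 5.39 and 7.36. It ranked 98 in pool 1 but 11409 in pool 2, and its range of 5.47 was the widest among the genes of the B lineage lists. Tnfrsf13c, the BAFF receptor, had 7.57, 7.63 and 7.52, and S1pr1, which guides lymphocytes out of tissues, had 6.53, 6.81 and 8.11. Cd40, the receptor for T cell help, stood at 6.36, 6.62 and 6.97. Cd55, a complement regulator, had 3.43, 4.49 and 6.38, with pools 1 and 2 below the array median. Ms4a1 (CD20) at 4.70, 4.42 and 5.11 and Cr2 (CD21) at 4.49, 4.67 and 4.29, 2 markers of mature B cells named after their values were seen, stood below the array median in every pool.

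MHC class II genes, which B cells use to present antigen, were, of the 13 B lineage lists, the one whose median differed most between pools: the median of 8 measured genes was at percentile 59.6 in pool 1, 42.4 in pool 2 and 82.6 in pool 3. H2-Ab1 had 6.33, 7.15 and 9.22, H2-Aa 5.32, 4.53 and 7.31 and H2-Eb1 6.01, 5.36 and 6.87. All 3 chains were highest in pool 3. Cd74, the invariant chain that accompanies them, had 6.34, 6.40 and 7.41, and Ciita, the activator of the class II genes, had 5.73, 5.69 and 5.53 and was level. Class II genes are also made by macrophages and dendritic cells, whose markers are given further on.

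Among plasma cell genes, 1 of 15 stood at 9 or more in all pools, beside 1.31% of all genes. This was Hsp90b1, a chaperone of the endoplasmic reticulum that many cell types make, at 9.504, 10.66 and 11.14. Sec11c, of the signal peptidase, had 7.54, 9.21 and 9.49, and Pdia4, which folds secreted proteins, had 8.57, 8.70 and 8.11. Slamf7, a surface receptor of plasma cells and other lymphocytes, had 8.27, 7.71 and 8.93, and Mzb1, a chaperone of immunoglobulin in B cells, 7.48, 6.47 and 7.33. Prdm1 (BLIMP1), at 5.05, 4.33 and 4.89, and Jchain, at 4.79, 3.83 and 4.64, which define secreting cells and were named after their values were seen, stood below the array median in all pools. Of 10 measured genes of germinal centres and class switching, 0 reached 9 in all pools, 5 stood above the array median in all pools and 4 below it in all pools. Gna13, a G protein that holds cells in germinal centres and is widely expressed, led them at 8.39, 8.54 and 9.27. Bcl6, the repressor of that stage, also acts in pre-B cells and had 7.35, 5.81 and 6.73. Ung, which removes uracil from DNA, had 7.13, 6.33 and 5.97, and S1pr2, a migration receptor, had 6.56, 6.43 and 6.38.

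Genes of fetal-type and B-1 cells gave 0 of 13 at 9 or more, with 8 above the array median in all pools (61.5%, beside 36.7% of all genes). The share of all genes at 9 or more (1.31%) leaves less than 1 such gene in a list of this size. Sox4, which pro-B cells also need, had 6.47, 7.06 and 6.62, Spn (CD43) 6.81, 6.23 and 7.08 and Hmga2, a chromatin protein of fetal cells, 6.58, 6.84 and 5.88. Lin28a, an RNA-binding protein of fetal progenitors, had 6.76, 6.39 and 5.76, lowest in pool 3, and Arid3a (BRIGHT) had 6.61, 6.33 and 6.05. Of the progenitor genes, 11 of 13 stood above the array median in all pools (84.6%, beside the same 36.7%) and 0 at 9 or more. Lmo2, an adaptor of blood stem cell factors, had 7.31, 8.26 and 7.18 and Lyl1, one of its partners, 7.63, 7.60 and 7.02. Tal1 and Gfi1, other factors of this stage, had 6.96, 6.93 and 6.72 and 6.71, 6.66 and 6.37. Meis1, a homeobox factor, had 5.93, 6.53 and 7.21, and Notch1, which directs progenitors to the T lineage, 6.75, 6.03 and 6.95.

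Genes of homing and migration were led by 2 that stood at 9 or more in all pools. Cxcr4, the receptor for the chemokine CXCL12 that retains precursors in their niche, had 10.49, 9.73 and 10.70. Itga4, the integrin chain that with a partner binds gut and marrow endothelium, had 9.63, 9.79 and 9.74. The possible partners of Itga4 differed: Itgb1 had 5.65, 6.63 and 9.15, a range of 3.502 with pool 3 highest, whereas Itgb7, the gut homing partner, had 5.51, 5.43 and 4.46. Ccr9, the receptor of lymphocytes that home to the small intestine, had 4.39, 4.75 and 4.29, ranks 16623, 15236 and 15654, below the array median in every pool, and Itgb7 was named with it after the values were seen. Ccr7 and Cd44, of lymph node entry and of adhesion to matrix, had 6.63, 6.22 and 7.02 and 6.25, 6.72 and 6.57.

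**Figure D2:**
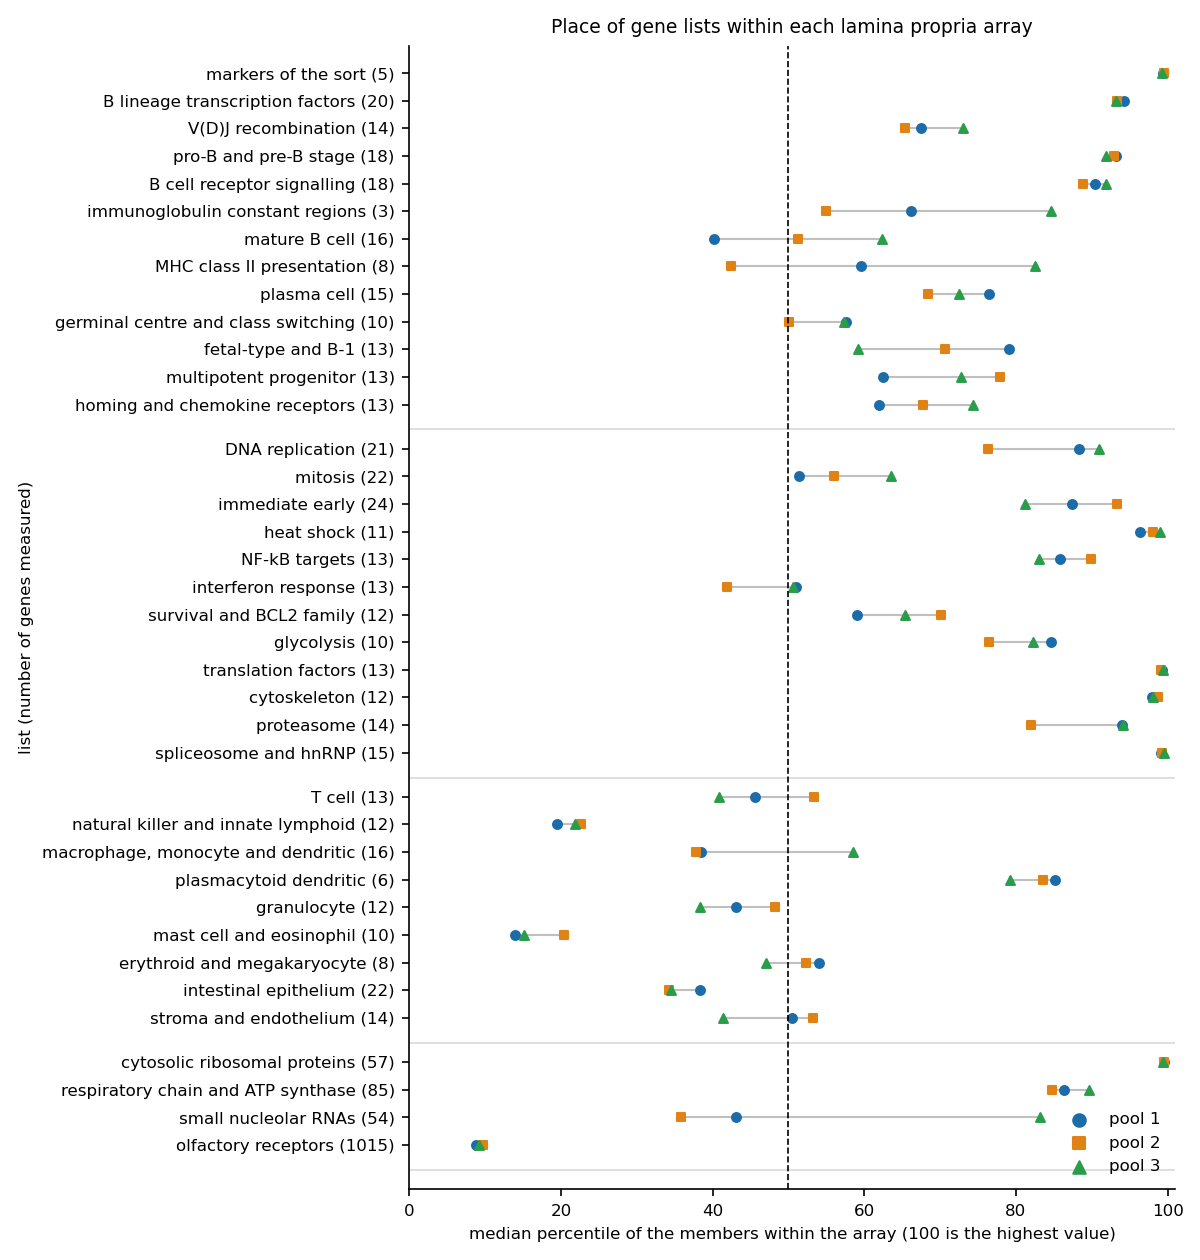
Median percentile (horizontal axis, 100 is the highest value of an array) of the measured members of gene lists and families in pool 1 (circles), pool 2 (squares) and pool 3 (triangles), with the number of measured genes in brackets and the middle of the array dashed. The precursor markers, transcription factors, translation factors and ribosomal proteins lie at the right in all pools, mast cell and natural killer markers at the left, and small nucleolar RNAs and MHC class II genes are far apart between pools.

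The genes at the top of every array were those of the basic machinery of the cell. The 262 genes at 9 or more in all pools (1.31% of all genes) held 47 of 57 cytosolic ribosomal protein genes and 11 of 15 splicing genes. They also held 8 of 13 translation factors and 6 of 12 genes of the cytoskeleton, and 144 of them belonged to no list or family examined. Of the 262, 104 had several probe sets, against 999 of all 19938 genes. Such a gene is represented by its highest probe set, and this rule favours it in these counts. The 262 genes had a median range of 0.65, with 191 of them under 1, beside a median range of 0.736 over all genes. A gene that falls below 9 in any pool is left out of this set, so the threshold itself favours small ranges. All genes with a mean of 9 to 10 had a median range of 1.12. Eef1a1, the elongation factor that carries transfer RNA to the ribosome, ranked 4, 3 and 2 at 12.22, 12.37 and 12.47. Tmsb10, which binds actin monomers, had 12.18, 12.23 and 12.23, and Tpt1, an abundant growth-related protein, 12.26, 11.79 and 12.12. Among the ribosomal proteins, Rps6 had 12.11, 11.95 and 12.01, Rps9 12.12, 11.94 and 11.95 and Rps20 12.21, 11.69 and 11.97. Rps12, Rpl21, Rps4x and Rps28 also stood between 11.41 and 12.11 in every pool. Hspa8, the constant HSC70 chaperone, had 11.76, 12.04 and 12.03, and Pabpc1, which binds the poly(A) tail, 12.01, 11.42 and 11.75. Srsf3, a splicing factor, had 11.91, 11.91 and 12.24. A further probe set that lists a RefSeq transcript of Srsf3 had 8.45, 3.40 and 7.82. The level of Srsf3 thus depends on the probe set that stands for the gene.

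Several of the top genes make RNAs that are not translated. Rn7sk, the RNA that holds back the elongation factor P-TEFb, had 12.15, 12.17 and 12.15, a range of 0.02. Rpph1, the RNA of ribonuclease P, had 12.79, 12.72 and 11.68, and was lower in pool 3. Malat1, a nuclear speckle RNA, had 12.03, 11.33 and 11.93, and Gas5, a host of small nucleolar RNAs, 11.71, 11.67 and 11.77. AY036118, a transcript without a named product here, had 11.87, 11.82 and 11.77.

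The top rank of all arrays went to Baiap2l1, an adaptor between membranes and actin, at 13.04, 12.93 and 12.89. Its probe set lists no RefSeq transcript of that gene, and the probe set that does list one stood at 5.77, 5.86 and 5.55. The top value is therefore that of a probe set and was not assigned to the gene here. Of the 262 genes, 10 were represented by such a probe set, Gas5, AY036118, Cd47 and Hk1 among them. Of the 104 with several probe sets, 2 had a further one below the median of all 3 arrays. Beside the named genes, 342 probe sets without a gene name and 324 with several names also stood at 9 or more in all pools, so the count of 262 covers only what could be named. The values just inside the threshold were those of Nxf1, whose lowest pool stood at 9.002, and Kcmf1, at 9.01, and just outside it were Wtap at 8.99 and Cspp1 at 8.98.

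Lists of cell division differed in level and in their order of pools. The 21 measured genes of DNA replication had their median at the percentiles 88.4, 76.3 and 90.9, with 13 above the array median in all pools (61.9%). Of the 16 that reached 7 in a pool, 4 had a range of 3 or more (25.0%, beside 12.7% of all such genes). Pcna, the sliding clamp of the polymerase, had 10.75, 10.34 and 10.97, and the helicase subunits Mcm6 and Mcm5 had 7.84, 7.10 and 8.96 and 7.02, 7.88 and 8.82. Rrm1, a subunit of ribonucleotide reductase, had 4.84, 5.59 and 8.84, with only pool 3 high. The 22 genes of mitosis had their median at 51.4, 55.9 and 63.6, with 9 above the array median in all pools, or 40.9%, near the 36.7% of all genes. The 30 replication histone genes had theirs at 51.7, 63.6 and 52.7, so that pool 2 was highest there. Of the 30, 12 stood above the array median in all pools (40.0%, near the same 36.7%). Smc4, a condensin subunit, had 8.55, 8.12 and 8.71, Top2a, which untangles DNA, 7.22, 5.80 and 8.37, and Mki67, the KI-67 antigen, 6.90, 6.12 and 8.03. In Top2a and Mki67 pool 2 was lowest and pool 3 highest.

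Genes that respond quickly to stimulation or tissue handling mostly stood above the array median, at unequal levels. Of 24 immediate early genes, 23 stood above the array median in all pools (95.8%, beside 36.7% of all genes). At 9 or more in all pools stood 2 of the 24 (8.33%, beside 1.31% of all genes). The list median was at the percentiles 87.4, 93.4 and 81.1, so that pool 2 was highest here. Cd69, an early activation antigen that also retains lymphocytes in tissue, had 9.98, 11.20 and 10.36, and Jun, a subunit of the AP-1 factor, 10.21, 10.27 and 10.30. Btg2, which slows division, had 8.66, 10.26 and 9.80, and Atf3, a stress factor, 8.36, 9.38 and 9.06. Ppp1r15a (GADD34), which restores translation after stress, had 6.26, 9.27 and 7.13, a range of 3.01 with pool 2 highest. Fos had 6.18, 7.23 and 6.08 and Ier2 5.72, 6.34 and 6.19, both named after their values were seen. Of 11 heat shock genes, 10 stood above the array median in all pools (90.9%, beside 36.7% of all genes). At 9 or more in all pools stood 4 of the 11 (36.4%, beside 1.31% of all genes). Among the 4 were Hsp90aa1 at 11.29, 11.46 and 11.28 and Hspa5 (BIP) at 10.67, 10.66 and 10.73. Hspe1, a mitochondrial chaperonin, had 8.27, 9.28 and 10.47, and Hspb1, named after its values were seen, 5.98, 5.26 and 5.32. The part of sample handling in these levels was not tested.

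Of 13 NF-kB targets, 9 stood above the array median in all pools (69.2%, beside 36.7% of all genes). Rel, the subunit prominent in B cells, had 10.54, 9.98 and 10.64, Tnfaip3 (A20), which ends the signal, 8.85, 8.06 and 9.49, and Birc3, an inhibitor of cell death, 9.76, 7.29 and 9.86. Birc3 was low in pool 2, as was Cflar, which blocks caspase 8, at 6.10, 4.30 and 8.03. Interferon-response genes were near the middle of the arrays, with list medians at 51.0, 41.9 and 50.6. Of the 13 measured, 0 stood at 9 or more in all pools (1.31% of all genes did), and Oasl1 led them at 7.04, 6.91 and 6.26. Among 12 survival genes, Mcl1, which precursor B cells need to survive, had 9.52, 9.52 and 10.10, while Bcl2l11 (BIM), which kills them, had 5.37, 8.57 and 6.73, high in pool 2. Of these 12, 4 had a range of 3 or more (33.3%, beside 2.96% of all genes). Glycolysis genes were led by Pkm at 9.55, 8.32 and 9.26 and Pgk1 at 7.01, 9.27 and 8.505.

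Lists of markers of other cells ranged from low to above the middle of the arrays. Of 113 distinct genes in 9 marker lists, 1 stood at 9 or more in any pool, beside 4.73% of all genes. This was Tcf4 (E2-2), a factor of plasmacytoid dendritic cells that B lineage cells also express, with 7.46, 7.45 and 9.17. The plasmacytoid list stood highest of the 9, with the median of its 6 measured genes at the percentiles 85.2, 83.6 and 79.2. Of the 6, 5 stood above the array median in all pools (83.3%, beside 36.7% of all genes). Irf8, a factor of dendritic and B lineage cells, had 6.95, 6.90 and 7.22, and Cox6a2, a cytochrome oxidase subunit, 7.02, 6.86 and 6.70. Siglech, a surface receptor of plasmacytoid cells named after its values were seen, had 5.46, 5.60 and 5.21. Of the 12 natural killer and innate lymphoid genes, 8 stood below the array median in all pools, beside 7410 of all 19938 genes. The list median was at 19.5, 22.6 and 21.9, and Prf1 (perforin) stood highest at 6.14, 6.80 and 5.99. The 10 mast cell and eosinophil genes had theirs at 13.95, 20.4 and 15.1. For 13 T cell genes it was 45.6, 53.3 and 40.9. Cd247, the zeta chain of the T cell receptor complex, stood highest at 7.002, 6.90 and 6.53, above the array median in all pools. Bcl11b, a factor of T cell commitment, had 6.55, 6.42 and 5.71, and Lat, an adaptor of T cell receptor signals, 6.22, 6.27 and 6.51. Cd3e, a further chain of the complex, had 6.33, 6.51 and 6.24, whereas Cd3d stood below the array median at 4.22, 4.48 and 3.51.

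For the 12 granulocyte genes the list median was at 43.0, 48.2 and 38.3, and S100a9, an abundant neutrophil protein, had 5.57, 5.63 and 5.30. The 16 macrophage, monocyte and dendritic genes had their median at 38.5, 37.8 and 58.5. Lyz2, the lysozyme of myeloid cells, had 5.16, 5.29 and 7.88, so that pool 3 alone was high, and Tyrobp, a signalling adaptor of myeloid cells, had 6.24, 6.37 and 6.95. Itgam (CD11b) had 6.71, 6.08 and 6.93 and C1qb, of complement, 5.89, 5.76 and 6.25. Thus the pool with the highest class II genes also had the highest Lyz2 and the highest median of this list, and the part of myeloid RNA in the class II values was not tested. The 22 genes of intestinal epithelium had their median at 38.4, 34.3 and 34.6. Krt8, a keratin of simple epithelia, had 7.85, 7.32 and 7.65 and Cdx1, an intestinal homeobox factor, 7.47, 7.32 and 6.96, whereas Fabp1 and Sis, abundant in enterocytes and named after their values were seen, had 3.26, 3.11 and 2.65 and 3.38, 3.46 and 3.00. The 8 erythroid and megakaryocyte genes and the 14 of stroma and endothelium had their medians between the percentiles 41.3 and 54.1. Pecam1 (CD31), which leukocytes share with endothelium, had 6.07, 7.49 and 8.33, and Col1a1, a collagen of fibroblasts, 7.17, 7.32 and 6.36. Olfactory receptors, used here as genes that should be silent, had their median at 8.86, 9.65 and 9.13, with 0 of 1015 at 9 or more in all pools.

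A range of 3 or more over the 3 pools, an 8-fold difference on the linear scale, was found for 590 of 19938 genes (2.96%). Most of them reached 7 in a pool: among the 4512 genes with at least 1 pool at 7 or more, 573 had such a range (12.7%). The share depended on the level. It was 0.127% of genes with a mean under 4, 4.36% with a mean of 6 to 7, 12.7% with a mean of 7 to 8 and 15.1% with a mean of 8 to 9, 4.33% at 9 to 10, and 0 of 180 genes at 10 or more. The wide ranges thus lay mostly among genes of the middle levels, and few lay at either end. The median range was 0.567 for genes with a mean under 4 and 0.635 for those at 10 or more. The values just inside the threshold were those of Lmnb1 and Tpgs2, both at 3.00, and just outside it were Ccni, at 2.9986, and Usp6nl, at 2.9978.

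**Figure D3:**
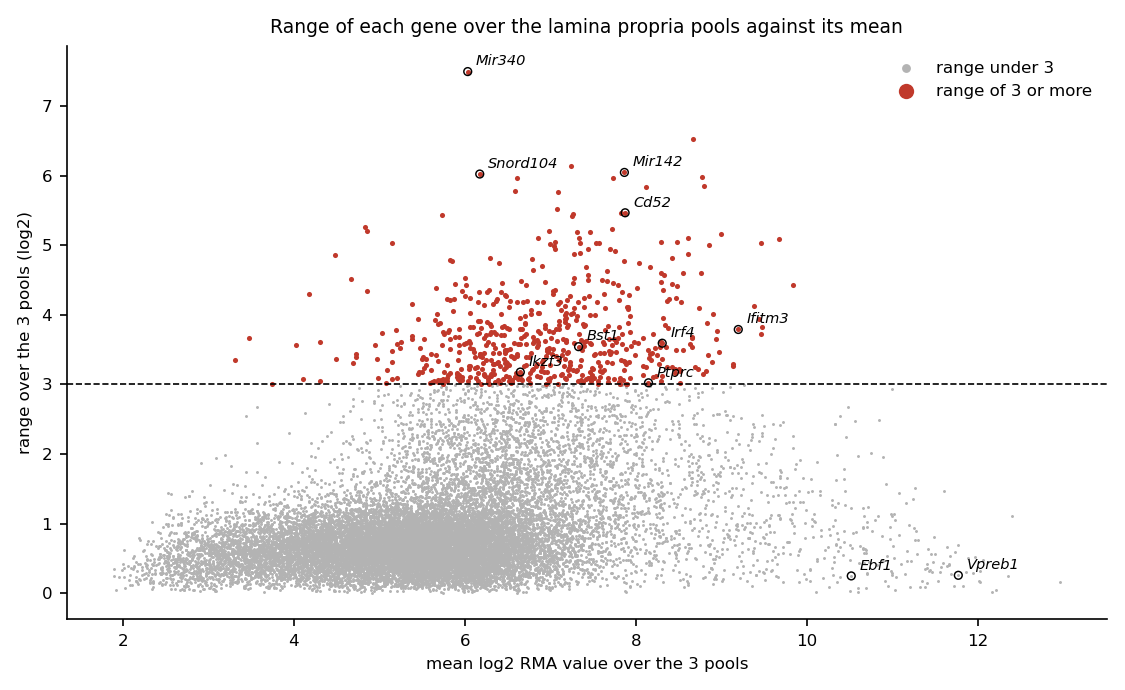
Range of each gene over the 3 lamina propria pools (vertical axis, log2) against its mean value (horizontal axis, log2 RMA), with genes of range 3 or more in red, other genes in grey, the limit dashed and some genes named in the text circled. Most wide ranges lie between means of 5 and 9, with Mir340 at the top at 7.498, and Vpreb1 and Ebf1 lie at the lower right.

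The pools took unequal parts in these ranges. Pool 3 was the highest pool for 386 of the 590 genes, pool 1 for 105 and pool 2 for 99, and it was the lowest for 24, against 256 and 310 for pools 1 and 2. Between 2 pools alone, 230 genes differed by 3 or more for pools 1 and 2, 252 for pools 1 and 3 and 308 for pools 2 and 3. In the last 2 pairs pool 3 was the higher for 233 of 252 and for 285 of 308 genes, whereas between pools 1 and 2 pool 2 was higher for 106 and pool 1 for 124. Without pool 3 the count over the remaining pools was thus 230, without pool 2 it was 252 and without pool 1 it was 308. Leaving out any 1 pool therefore changed the count by more than 1.5 times.

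A pool was said to stand apart when its distance to the nearer of the other pools was at least 2/3 of the range. Pool 3 stood apart as the high pool in 182 genes, pool 2 as the low pool in 107 and pool 1 as the low pool in 67. Pool 2 was the high pool in 29 genes, pool 1 in 20, and pool 3 was the low pool in 2, while 183 genes had no pool apart. After quantile normalization of the 3 arrays, which gives them the same distribution, pool 3 was the high pool in 87 genes, pool 2 the low pool in 86 and pool 1 the low pool in 63. Pool 2 was then the high pool in 38 genes, pool 1 in 24, and pool 3 was the low pool in 3. The part of the wider spread of values in pool 3 in the size of its set was not tested.

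**Figure D4:**
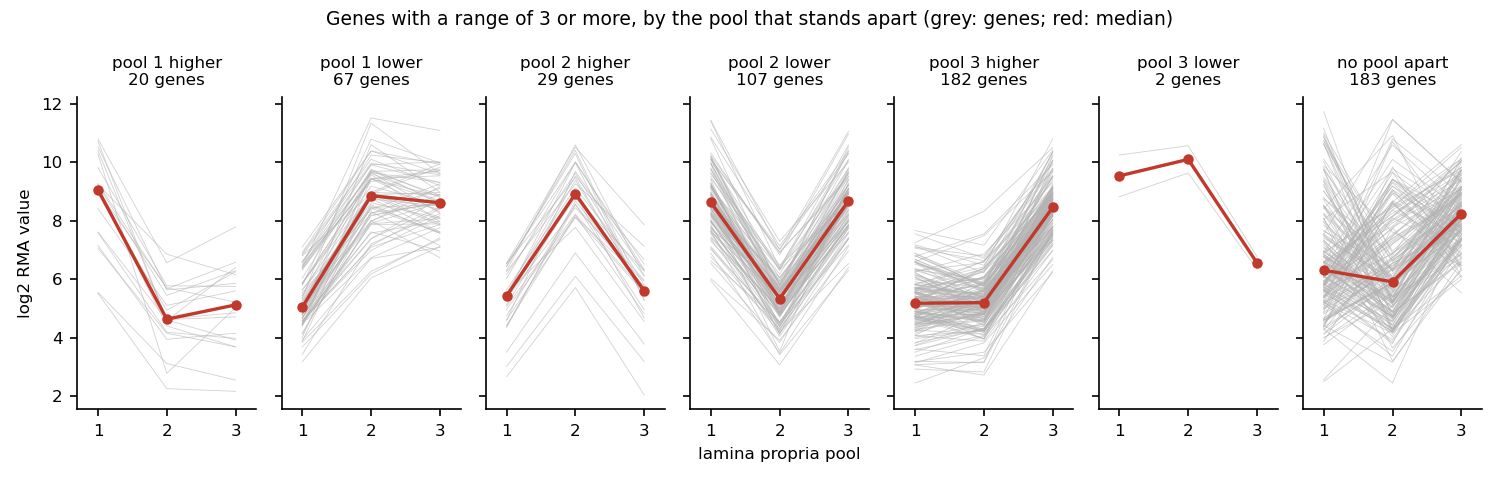
Log2 RMA values (vertical axis) in pools 1, 2 and 3 (horizontal axis) of the 590 genes with a range of 3 or more, in 7 panels by the pool that stands apart, with 1 grey line per gene joining its values and the median of the set in red. The sets with pool 3 higher (182 genes, medians 5.18, 5.20 and 8.46) and pool 2 lower (107 genes, medians 8.64, 5.34 and 8.68) are the largest with a pool apart.

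The genes with the widest range in each set came from many pathways. With pool 3 high, Snord104 and Snord87, small nucleolar RNAs that guide the methylation of ribosomal RNA, had 4.02, 4.46 and 10.04 and 3.08, 3.18 and 8.29. Anapc13, a subunit of the ubiquitin ligase that ends mitosis, had 4.22, 5.396 and 10.19, and Eif2s3x, a subunit of the initiation factor eIF2, 6.58, 5.15 and 10.26. Phc3, of a Polycomb complex, had 3.62, 3.39 and 8.42, and Pbrm1, of a chromatin remodelling complex, 5.85, 6.43 and 10.80. With pool 3 low there were only Ifitm3, an interferon-induced membrane protein, at 10.25, 10.56 and 6.77, and Sirt4, a mitochondrial sirtuin, at 8.82, 9.63 and 6.34.

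With pool 2 low, Hdac2, a histone deacetylase, had 10.81, 5.65 and 10.52, and Serp1, which protects membrane proteins during stress, 11.40, 6.37 and 10.60. Gpx1, a glutathione peroxidase, had 9.93, 4.70 and 8.52, Brix1, of ribosome assembly, 8.44, 3.53 and 9.30, Myl12b, a myosin light chain, 9.41, 4.37 and 8.91 and Gmps, which makes GMP, 9.27, 4.24 and 9.09. In these 6 genes pools 1 and 3 lay within 1.5 of each other. With pool 2 high, Mrpl48, of the mitochondrial ribosome, had 4.58, 9.69 and 6.28, Tomm5, of mitochondrial protein import, 6.30, 10.59 and 6.10 and Pcbd1, an enzyme of pterin recycling, 5.43, 9.99 and 5.29. E2f3, a factor of S phase entry, had 5.52, 8.88 and 4.68 and Nipsnap3b had 4.35, 8.68 and 5.73.

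With pool 1 low, Zranb1, a deubiquitinase, had 5.35, 11.33 and 9.62, Rnf7, a subunit of cullin ubiquitin ligases, 6.42, 11.51 and 11.09 and Cetn3, a centrin, 4.39, 9.58 and 7.96. Mrps18c, of the mitochondrial ribosome, had 4.46, 9.65 and 8.26, Rbm12b2, an RNA-binding protein, 4.01, 9.43 and 8.31 and Gdap10 4.77, 10.60 and 8.98. With pool 1 high, Rpp25l, related to a ribonuclease P subunit, had 10.53, 5.63 and 5.86, Tmed4, a cargo receptor between endoplasmic reticulum and Golgi, 10.80, 6.56 and 7.79 and Cmc1, of cytochrome oxidase assembly, 8.92, 4.94 and 6.26. Efcab2 had 8.98, 4.65 and 4.85. The widest ranges with pool 1 high were those of 2 microRNA genes.

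MicroRNA genes were dim as a family, yet held the widest range of all. Of 300 measured, 1 stood at 9 or more in all pools, 6 had a range of 3 or more (2.0%, against 2.96% of all genes), and the median stood at the percentiles 18.8, 18.1 and 19.8. Mir340 had 10.28, 2.78 and 5.03, a range of 7.498, which was the widest of all genes. Mir28a had 10.40, 4.62 and 4.71, with pool 1 high, and Mir6516 6.45, 10.30 and 5.27, with pool 2 high. Mir142, a microRNA gene of blood cells, had 11.16, 5.12 and 7.31, with no pool apart. Mir18 and Mir19b-1, which lie in 1 cluster on chromosome 14, had 2.45, 3.32 and 6.75 and 3.198, 3.15 and 7.66, with pool 3 high in both. The single gene at 9 or more in all pools was Mir667, at 9.42, 9.75 and 9.59. The last 4 genes, and the further members of the cluster below, were named after their values were seen.

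The mature sequences are shown because they differ in the part that selects targets, the seed (bases 2 to 8, in capitals), so that these genes fall into no shared seed group except within the cluster. They are from RefSeq, build GRCm38.p6, 5′ to 3′. The array reports a probe set for the gene and not the mature product, whose level was not measured here.
mmu-miR-340-5p: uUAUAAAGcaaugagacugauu
mmu-miR-28a-5p: aAGGAGCUcacagucuauugag
mmu-miR-6516-5p: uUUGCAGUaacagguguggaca
mmu-miR-142a-5p: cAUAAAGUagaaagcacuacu
mmu-miR-142a-3p: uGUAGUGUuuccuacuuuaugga
mmu-miR-667-3p: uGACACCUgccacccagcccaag
mmu-miR-18a-5p: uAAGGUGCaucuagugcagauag
mmu-miR-19b-3p: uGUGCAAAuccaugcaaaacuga
mmu-miR-19a-3p: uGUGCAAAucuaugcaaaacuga
mmu-miR-17-5p: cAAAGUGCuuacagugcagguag
mmu-miR-20a-5p: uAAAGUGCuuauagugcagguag
Mir340 gives the mature sequence at chr11:50069720-50069741 and Mir142 those at chr11:87756867-87756887 and chr11:87756903-87756925, all on the plus strand. The cluster spans its sequences from chr14:115043684-115043706 (miR-17-5p) to chr14:115044358-115044380 (miR-19b-3p). Within it miR-19b-3p and miR-19a-3p share the seed GUGCAAA, and miR-17-5p and miR-20a-5p share AAAGUGC. Of the further genes of the cluster, Mir17 had 4.50, 4.22 and 6.41 and Mir20a 3.51, 3.96 and 5.11. Both were highest in pool 3, as were Mir18 and Mir19b-1. Mir19a, of the same seed as Mir19b-1, had 2.39, 3.13 and 2.43 and was highest in pool 2. Mir19a ranked 19845, 19376 and 19679 among 19938 genes, near the bottom of every array, so its order of pools is uncertain.

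Small nucleolar RNAs and the respiratory chain held larger shares of wide ranges than all genes did (2.96%). Of 54 small nucleolar RNA genes, 11 had a range of 3 or more (20.4%), 5 of them with pool 3 high, and the family median stood at percentile 43.1 in pool 1, 35.9 in pool 2 and 83.2 in pool 3. Of 85 genes of the respiratory chain and ATP synthase, 16 had such a range (18.8%), among them 6 with pool 2 low and 4 with pool 1 low, while 8 stood at 9 or more in all pools. All 16 were among the 64 that reached 7 in a pool (25.0%), beside 12.7% of all genes that reached 7. Of 14 proteasome genes, all with at least 1 pool at 7 or more, 6 had such a range (42.9%, beside the same 12.7%): Psma7, a core subunit, had 5.57, 4.99 and 9.80, whereas Psma3 and Psma2, of the same ring, had 9.98, 10.13 and 9.97 and 9.57, 9.56 and 9.39. Subunits of 1 complex thus stood level in some cases and far apart in others. Of 57 cytosolic ribosomal protein genes, 0 had a range of 3 or more. Their median value was 10.82, 10.76 and 10.82, and 0 of all 180 genes with a mean of 10 or more had such a range. The 0 thus cannot be read as a trait of this family. A range of 3 or more was found for 3 of 13 translation factors, Eif3e among them at 9.80, 5.59 and 9.69. Of 12 genes of the cytoskeleton it was found for 1, Pfn1 (profilin), at 6.82, 9.97 and 9.57.

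Of the 153 distinct genes in the 13 B lineage lists, 16 stood at 9 or more in all pools, beside 1.31% of all genes. A range of 3 or more was found for 7 of the 153, beside 2.96% of all genes: Irf4, Ikzf3, Bst1, Ptprc, Btk, Cd52 and Itgb1. Pool 2 was the lowest for Irf4, Bst1, Cd52 and Ikzf3, and pool 1 for Ptprc, Btk and Itgb1. Pool 3 was the highest for Ikzf3, Ptprc, Btk and Itgb1, and pool 1 for Irf4, Bst1 and Cd52. The B lineage genes with a wide range thus had no order of pools in common.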

How the data were processed

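Per the submitters' processing notes, the deposited log2 values came from RMA, run in the program Affymetrix Expression Console (version 1.3.0.187), with settings not given in the sources used here. They were used as deposited. Of 35556 probe sets, 21789 carried 1 gene symbol in the platform's gene table, 1621 several and 12146 none, and only the first kind was used. Of these, 21698 had their gene in RefSeq (GRCm38.p6), and 0 symbols changed. A gene with several probe sets (999 of 19938) was represented by the one with the highest mean over the study's 6 arrays. The number of arrays limits the precision, and 3 arrays give no depth in the sense of counted reads.

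No groups were compared and no test was made. Genes were described by rank and percentile within each array, by a value of 9 or more in all pools, and by the range over the pools. The lists held 13 for the B lineage, 12 for other processes, 9 for other cells, and 11 families were taken by symbol; genes on a list that lacked such a probe set were not analysed here. The members and lists were chosen with earlier results of these data known. Genes were named by a rule: the 5 markers; the 20 best mean ranks; of each B lineage list up to 6 members by rank and 2 by range; of other lists up to 4 by rank and 1 by range; the 6 widest ranges in each set of pool and direction; and 2 genes on either side of each threshold. Further genes, said in the text to be named after their values were seen, fall outside it, as does Rag2, named because its reporter defined the sort. Alternatives were 2 scalings, other rules for several probe sets, other thresholds and leaving out each pool. The scripts (Python 3.11.15, pandas 2.3.3, numpy 2.4.6, matplotlib 3.10.9) were tested on simulated data.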

Additional observations from a re-analysis of the deposited data

How the results depend on the processing

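The 262 genes at 9 or more in all pools became 174 at a threshold of 9.5, and 459 genes lay in the top 5% of every array, all 262 included. The 590 genes with a range of 3 or more became 1034 at 2.5 and 321 at 3.5, and 975 genes had a percentile range of 50 or more, of which 401 were shared. Leaving out 1 pool gave 230 to 308 genes with a range of 3 or more and 287 to 376 at 9 or more in both remaining pools. Pools 1 and 2 alone gave 230. Fewer pools leave less room for a range, and more for a value of 9 in all of them. Quantile normalization gave 259 and 480 genes, of which 244 and 451 were shared with the counts as deposited, and median centring 260 and 658. With the mean of a gene's probe sets the counts were 232 and 551. With the probe set highest over the lamina propria arrays they were 262 and 583. Of 13 list percentiles under 91 alternative values, 1 moved by more than the spread between pools: the immunoglobulin constant regions stood at percentile 37.0 with the mean of the probe sets. No paired analysis was possible because no groups were compared. The small number of arrays and unknown background of each probe limit what low values can show.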
